A study of Saccharomyces cerevisiae with 236 samples.

Results

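The strains described here were the 30 deletion strains of budding yeast (Saccharomyces cerevisiae) that lack an autophagy gene of the ATG series or SNX4. They were chosen by gene name, and they made up 30 of the 5179 strains on the barcode array, each with an uptag and a downtag (60 of 10198 tags). The series measured 3 deletion collections in pooled growth for 5 generations, with 1 pool of strains for each collection; of its 236 arrays, the starting pools and 2 arrays with contradictory labels entered no comparison below. YKOaux is the homozygous diploid auxotrophic collection in BY4743 (MATa/α, homozygous for the his3, leu2 and ura3 deletion alleles, heterozygous at LYS2 and MET17). PBprot is the haploid MATa collection with the his3, leu2, met17 and ura3 alleles, made prototrophic by the single-copy plasmid pHLUM, which carries HIS3, LEU2, URA3 and MET17. BCprot is a MATa prototrophic collection made by backcrossing, which carries can1Δ::STE2pr-SpHIS5, a his3 allele and a lyp1 deletion in every strain.

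The synthetic media were synthetic complete medium (SC), single dropouts of SC (ADE-, ARG-, GLN-, GLY-, LYS-, MET-, SER-, THR- and TRP- for all collections, with HIS-, LEU- and URA- for PBprot and BCprot only) and minimal medium (MM), to which nutrients including histidine, leucine, methionine and uracil were added for YKOaux. The rich media were YPD, YPG (3% glycerol as the carbon source), YPD with 200 µM cisplatin, a DNA cross-linking agent, and YPD with the proton ionophores CCCP (32 µM) or FCCP (6 µM) or with a quinolone (PCID 16001701, 125 µM). The dropouts and MM were set against SC. Growth in YPG and in cisplatin was set against plain YPD, and growth in the other 3 drugs against YPD containing 2% DMSO. Controls had 4, 4 and 3 SC arrays, 8, 9 and 9 YPD arrays and 9, 8 and 7 DMSO arrays in YKOaux, PBprot and BCprot. Treatments mostly had 3 arrays, with 2 in YPG for YKOaux, 2 in 5 of the BCprot dropouts, 4 in MM, YPG and cisplatin for both prototrophic collections, 4 in LYS- and 6 in the quinolone for BCprot.

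Autophagy carries cytoplasm and organelles to the vacuole inside a double membrane, where they are broken down and their amino acids are returned to the cell. Nitrogen starvation and loss of TORC1 activity switch it on through the Atg1 kinase and the scaffold of Atg17, Atg29 and Atg31. The membrane then grows with the help of Atg9 vesicles, a phosphatidylinositol 3-kinase and the conjugation of Atg8 to lipid. Selective forms use receptors for single cargoes, such as Atg32 for mitochondria and Atg19 for the enzymes of the cytoplasm-to-vacuole targeting (Cvt) pathway, with Atg11 as their scaffold. The comparisons asked whether strains without these genes lost abundance when a nutrient was withheld, when the carbon source had to be respired, or under a drug.

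Abundance was read as the log2 intensity of a strain's tag. A fitness defect (FD) score subtracts the value on a treatment array from the median of the controls, so that a positive score means lower abundance in the treatment and 1 unit is 1 log2 unit. The score is relative to the pool, and slower growth, later recovery and loss of cells cannot be told apart by it. A strain was tested where every one of its tags was present on each control array, and called lower or higher where its median FD score reached 1 or −1 with an adjusted p under 0.05 (limma, with p-values adjusted by Benjamini-Hochberg across every strain tested in the same comparison, here written q). Confidence intervals are 95% intervals of the fitted difference, which can lie off the median. A wider reading took strains with at least 1 present tag.

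Most of the 30 strains were detected in all 3 pools. In SC, every tag was present for 27 members in YKOaux, 21 in PBprot and 19 in BCprot, which was 90%, 70% and 63.3% of the members against 61.1%, 42.4% and 46.9% of all strains. In the YPD controls 20 members had every tag in each collection. At least 1 tag was present for 29, 29 and 27 members in SC. The strain of ATG4, the protease that processes Atg8, had no present tag in YKOaux or PBprot, where its control means lay at 5.25 and 5.28 (YKOaux, SC) and at 7.96 and 7.83 (PBprot, SC) below the thresholds of 7.40 and 7.98. In BCprot no tag was present in SC for ATG11, ATG14 (a subunit of the autophagy form of the phosphatidylinositol 3-kinase) or ATG20 (a sorting nexin). In the SC and YPD controls ATG1, ATG4 and ATG5 did not have every tag present in any collection, so the kinase that starts autophagy and the target of Atg12 could be read only from 1 tag. The other 27 members were tested in at least 1 of 51 comparisons of a medium with its control in a collection. A single array set limits on these numbers, replicate 8 of YPD in YKOaux, whose median correlation with the arrays of its set was 0.52 (0.817 for the lowest of the others). Without it, 6 more members passed in YKOaux YPD media.

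Loss of an autophagy gene left abundance near that of the control in nearly all media, at a rate of calls close to that of deletion strains as a whole. Over 1090 tests of a member in a medium, 7 (0.642%) were called lower and none higher, beside 0.62% of all strains' tests called lower. The median FD score was 0.00015, and the scores ran from −1.12 to 2.28. At an unadjusted p under 0.05 limma gave 60 member tests, beside 7584 of 125082 tests over all strains. At q under 0.05 there were 14, beside 1851 over all strains. The upper confidence limit lay under an FD score of 1 in 1057 tests (97%), and in 1037 (95.1%) the whole interval lay within 1 unit of 0, with a median half-width of 0.414. Over all strains these shares were 95.8% and 92.9%. All 7 calls were in PBprot and concerned 2 strains, ATG29 (4 calls) and ATG20 (3 calls). Over all strains and comparisons 0.0256% of tests were called higher. In the wider reading all 30 members had at least 1 test, and 11 of 1428 tests were called lower and 0 higher, beside 0.83% of all strains' tests called lower. The map of median scores shows these strains as the few dark cells in an otherwise pale field.

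**Figure D1:**
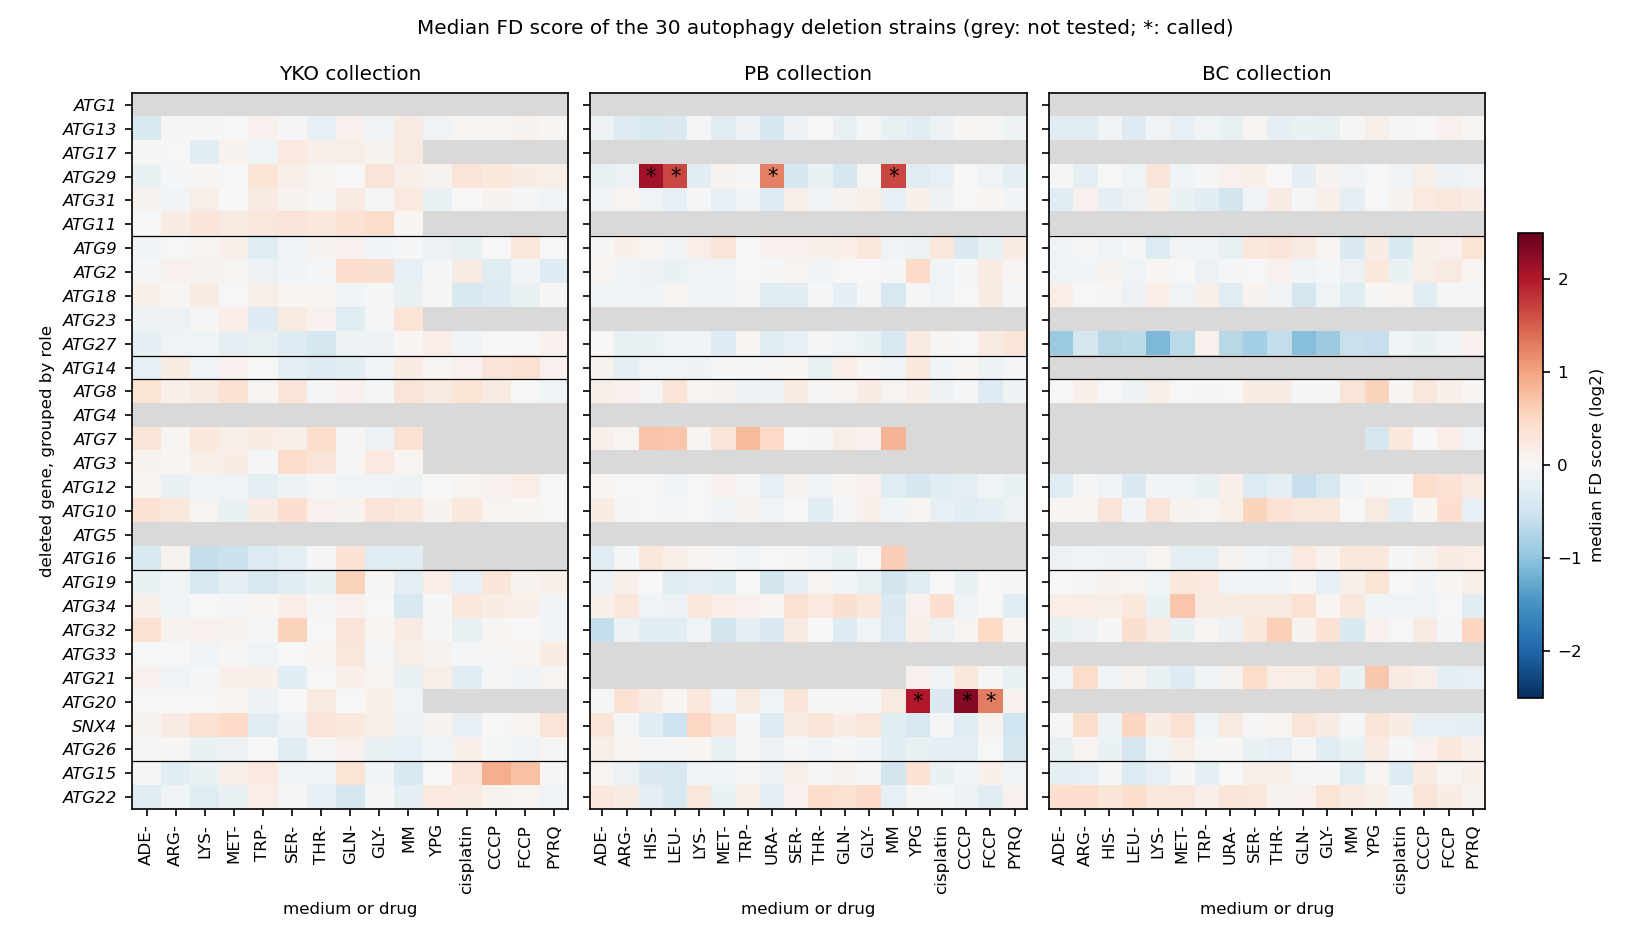
Median FD score (log2 units, colour) of the 30 strains (vertical axis) in each medium (horizontal axis), in 1 panel for each collection, grey where a strain was not tested with every tag and starred where called. The starred cells are the 4 of ATG29 and the 3 of ATG20 in PBprot, and the YKOaux and BCprot panels hold no star.

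In dropout media no member was called in YKOaux (243 tests, FD scores from −0.60 to 0.58, median 0.0221) or in BCprot (19 members in 12 dropouts, from −1.12 to 0.68, median −0.02). Among all strains 0.144% of YKOaux tests and 0.0377% of BCprot tests were called lower, so a count of 0 among the members lies near what the strains as a whole gave. At an unadjusted p under 0.05, limma gave 3 member tests in YKOaux, 7 in PBprot and 7 in BCprot. Over all strains it gave 757 of 28458, 1238 of 26328 and 683 of 29160 tests in the same order. In PBprot 3 of 252 tests were called lower, beside 0.596% of all strains' tests, and all 3 were ATG29. The member medians of −0.03 in PBprot and 0.0221 in YKOaux stood beside −0.03 and 0.0154 for all strains. Each dropout was compared with the same SC arrays, so the scores of a strain in different dropouts are not independent of each other.

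In minimal medium, where prototrophic cells have to make every amino acid and base, calls were again few. None of 27 members was called in YKOaux and none of 19 in BCprot, where 1.14% and 0.617% of all strains were called lower. At an unadjusted p under 0.05 limma gave 0 and 1 member tests, in neither collection a larger share than over all strains. In PBprot 1 of 21 members was called (ATG29), beside 3.78% of all strains. By limma 6 had an unadjusted p under 0.05, 3 of them with q under 0.05, beside 529 and 263 of 2194 over all strains. Of these 6, ATG7, ATG16 and ATG29 read lower, and ATG15, ATG18 and ATG27 read higher. The member median was 0.049 in YKOaux, −0.20 in PBprot and −0.09 in BCprot, against 0.0036, −0.13 and −0.05 over all strains tested. The scores apart from ATG29 ran from −0.39 to 0.37 in YKOaux and from −0.56 to 0.32 in BCprot, and from −0.46 to 0.85 in PBprot, where ATG7 (0.85) and ATG16 (0.61) followed ATG29.

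Of the core machinery, ATG1, ATG8 and ATG9 were read in all 3 collections. ATG1 (YGL180W) encodes the kinase that starts autophagy, and its single present tag stood in YKOaux at 9.47, 9.25, 9.29 and 9.20 in SC and at 9.61, 9.29 and 8.78 in MM. In PBprot it stood at 10.21, 9.80, 9.65 and 9.87 in SC and at 10.10, 10.06, 9.79 and 9.94 in MM. In BCprot the SC arrays gave 10.03, 9.65 and 10.22 and the MM arrays 10.29, 9.95, 10.13 and 10.10. The SC and MM arrays overlapped in each collection, with median FD scores of −0.02, −0.16 and −0.09, and over its 51 tests the ATG1 scores ran from −0.32 to 0.81 with 49 upper limits under 1.

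ATG8 (YBL078C) encodes the ubiquitin-like protein that is joined to phosphatidylethanolamine on the growing membrane. Its strain stood at 10.45, 10.21, 9.85 and 9.82 in SC and at 9.60, 9.71 and 9.77 in MM in YKOaux, where the groups did not overlap but the median score of 0.32 was not called and the upper limit was 1.01. In PBprot the SC arrays (10.59, 9.82, 9.92 and 9.62) and the MM arrays (10.60, 9.66, 9.70 and 9.90) overlapped, with a score of 0.07. In BCprot SC gave 10.32, 10.38 and 10.15 and MM gave 10.77, 9.52, 9.99 and 10.01, with a score of 0.32. The 3 collections thus gave scores of 0.07 to 0.32, all below the threshold.

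ATG9 (YDL149W) encodes the scramblase carried on the vesicles that seed the membrane. Its MM scores were −0.02 in YKOaux, −0.08 in PBprot and −0.35 in BCprot, with upper limits of 0.16, 0.24 and 0.19. ATG13, the regulatory subunit of the Atg1 complex, gave 0.20, −0.18 and 0.02, with upper limits of 0.58, 0.23 and 0.39. ATG13 is named here after its values were seen. For neither strain did an MM interval reach the call threshold in any collection.

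By role, the 8 conjugation genes (6 of them tested) gave scores from −0.60 to 0.85 over all comparisons with no call, and limma gave 19 tests at an unadjusted p under 0.05. The 5 genes of membrane supply gave scores from −1.12 to 0.47 with no call and 16 tests at an unadjusted p under 0.05. The subunit ATG14 gave scores from −0.33 to 0.38 and the breakdown genes ATG15 (YCR068W) and ATG22 (YCL038C) from −0.45 to 0.91, with 1 and 6 tests at an unadjusted p under 0.05 and no call. The induction group (5 of 6 genes tested) held the 4 ATG29 calls (2.31% of its tests), and the selective group (8 genes) held the 3 ATG20 calls among 336 tests (0.893%), beside the 0.62% over all strains. Role medians lay between −0.05 and 0.05. The induction group had 8 tests at an unadjusted p under 0.05 by limma and the selective group 10. With all roles together, 60 of 1090 member tests had an unadjusted p under 0.05 by limma, beside 7584 of 125082 over all strains. The share of such tests was larger than over all strains in the conjugation and membrane groups, and smaller in the other roles.

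**Figure D2:**
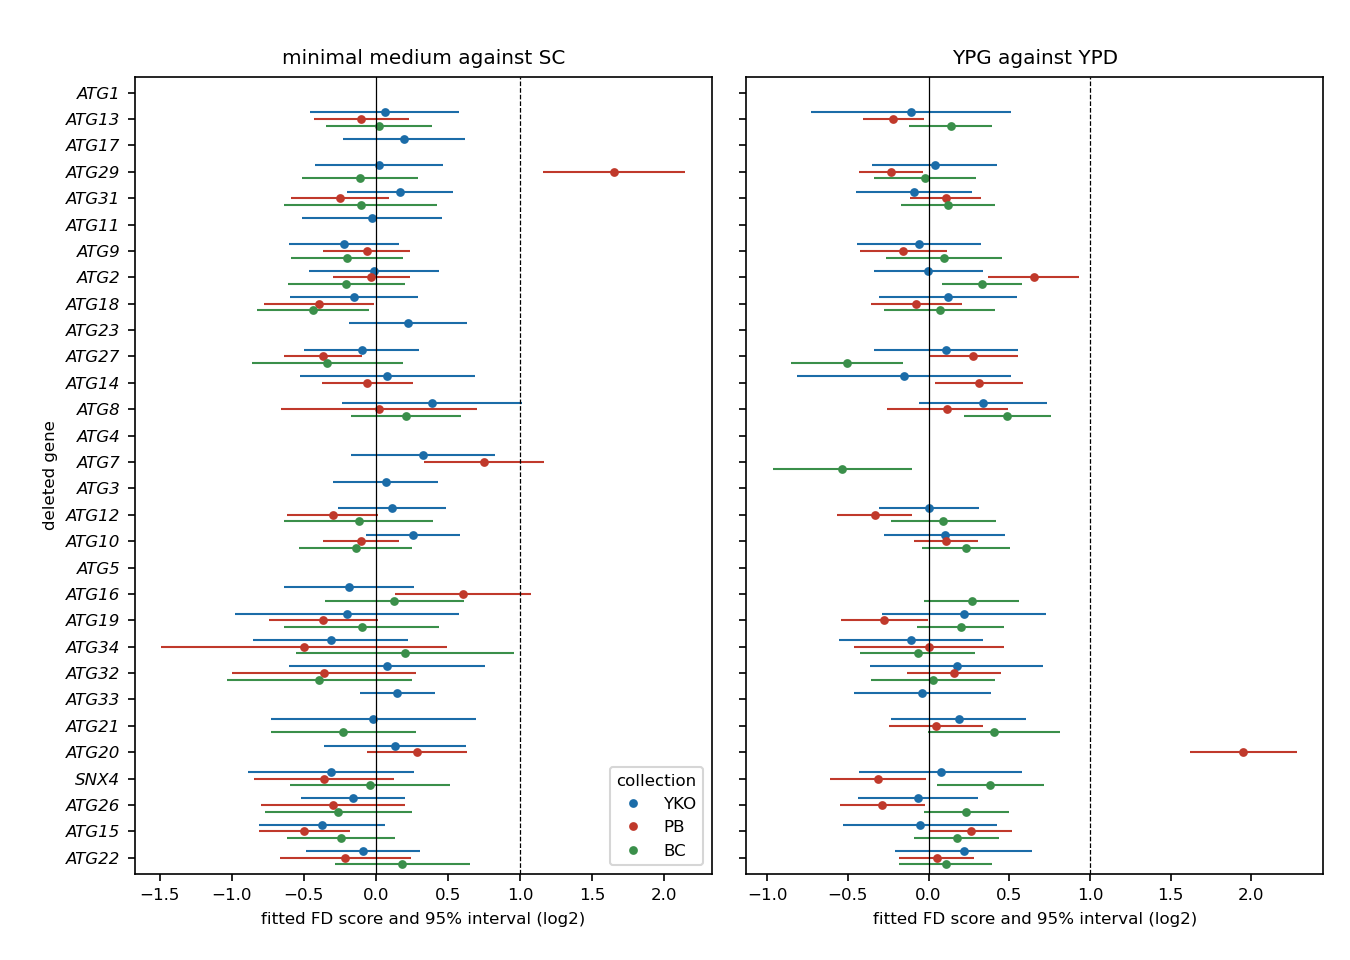
Fitted FD score (log2 units, horizontal axis) with its 95% interval for each strain (vertical axis) in MM and in YPG, in 1 colour for each collection, with a dashed line at 1. ATG29 in PBprot MM (1.16 to 2.15) and ATG20 in PBprot YPG (1.62 to 2.28) are the intervals that lie wholly above 1.

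ATG29 (YPL166W), whose product joins Atg17 and Atg31 in the starvation scaffold, was the exception in the nutrient media. In PBprot its tag stood at 10.51, 10.31, 10.05 and 10.01 in SC. It stood at 9.50, 8.08 and 8.02 in HIS-, at 8.86, 8.52 and 7.74 in LEU-, at 9.48, 8.27 and 8.92 in URA- and at 8.91, 8.34, 8.32 and 8.68 in MM. All 13 of these arrays lay below all 4 SC arrays. The same tag stood at 10.09, 10.12 and 9.82 in MET-, a medium whose missing nutrient is also supplied by a gene on pHLUM, and those arrays overlapped SC.

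The median FD scores of ATG29 in PBprot were 2.10 ± 0.84 (SD, n = 3) without histidine (limma, q = 2.66e-05), 1.66 ± 0.58 (n = 3) without leucine (limma, q = 6.1e-06), 1.26 ± 0.60 (n = 3) without uracil (limma, q = 0.00109) and 1.67 ± 0.29 (n = 4) in MM (limma, q = 3.33e-06). It ranked 8, 24, 30 and 40 among 2194 strains tested. Of all strains, 1.91% were called lower in HIS-, 2.19% in LEU- and 1.64% in URA-. Together the 3 dropouts called 23 of the 2194 strains (1.05%), and 22 (1%) were called in MM as well, ATG29 among them both times. These 4 media share the SC control arrays. The downtag, which was not the tag used, gave 1.58, 1.50, 1.14 and 1.47 in the same order, so both tags of the strain were lower in each medium.

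In the other 9 dropouts the PBprot scores of ATG29 lay between −0.44 and 0.09, and in YPG and the drugs between −0.29 and −0.01. The strains of the 2 scaffold proteins that act beside Atg29 were not called in those media. ATG31 gave −0.11, −0.20, −0.31 and −0.20 in HIS-, LEU-, URA- and MM, with upper limits of 0.35 at most. ATG17, read from 1 present tag and named after its values were seen, gave −0.27, −0.27, −0.49 and −0.59, with upper limits of 0.62 at most.

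In the other collections ATG29 was not called. YKOaux gave 10.10, 10.23, 9.94 and 9.64 in SC and 10.10, 9.88 and 9.88 in MM (score 0.13). BCprot gave 9.91, 9.77 and 10.16 in SC and 10.32, 9.97, 9.89 and 10.03 in MM (score −0.09), with scores of 0.01, −0.11 and 0.11 in HIS-, LEU- and URA-. The score in MM was 1.63 higher in PBprot than in YKOaux (SE 0.337, interval 0.96 to 2.30, limma q = 0.000525). The YKOaux medium held added nutrients, histidine, leucine and uracil among them, so collection and medium cannot be told apart in this difference. BCprot minus PBprot was −1.76 in MM (interval −2.41 to −1.12, limma q = 0.000112), −1.70 in HIS- (−2.39 to −1.01, limma q = 0.00153) and −1.94 in LEU- (−2.63 to −1.25, limma q = 0.00013). In URA- it was −1.27 (−1.96 to −0.58) and was not called (limma q = 0.0583), and with the replicate number as a block it was −1.24 (limma q = 0.00668). Whether replicate numbers pair the BCprot dropout arrays could not be told. Of all strains' tests of a difference, 0.444% were called for PBprot minus YKOaux, 0.172% for BCprot minus YKOaux and 0.402% for BCprot minus PBprot. The members gave 1 of 305, 0 of 280 and 3 of 324, all of them ATG29.

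Leaving out URA- replicate 2 brought the URA- score to 0.98 (limma q = 0.0477), below the call threshold. The strains of the genes next to ATG29 were read in the same pool. Both strains of SET6, whose reading frame overlaps that of ATG29, gave PBprot scores from −0.29 to 0.04 in the 4 media, and REV3 was not called in any of them.

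**Figure D3:**
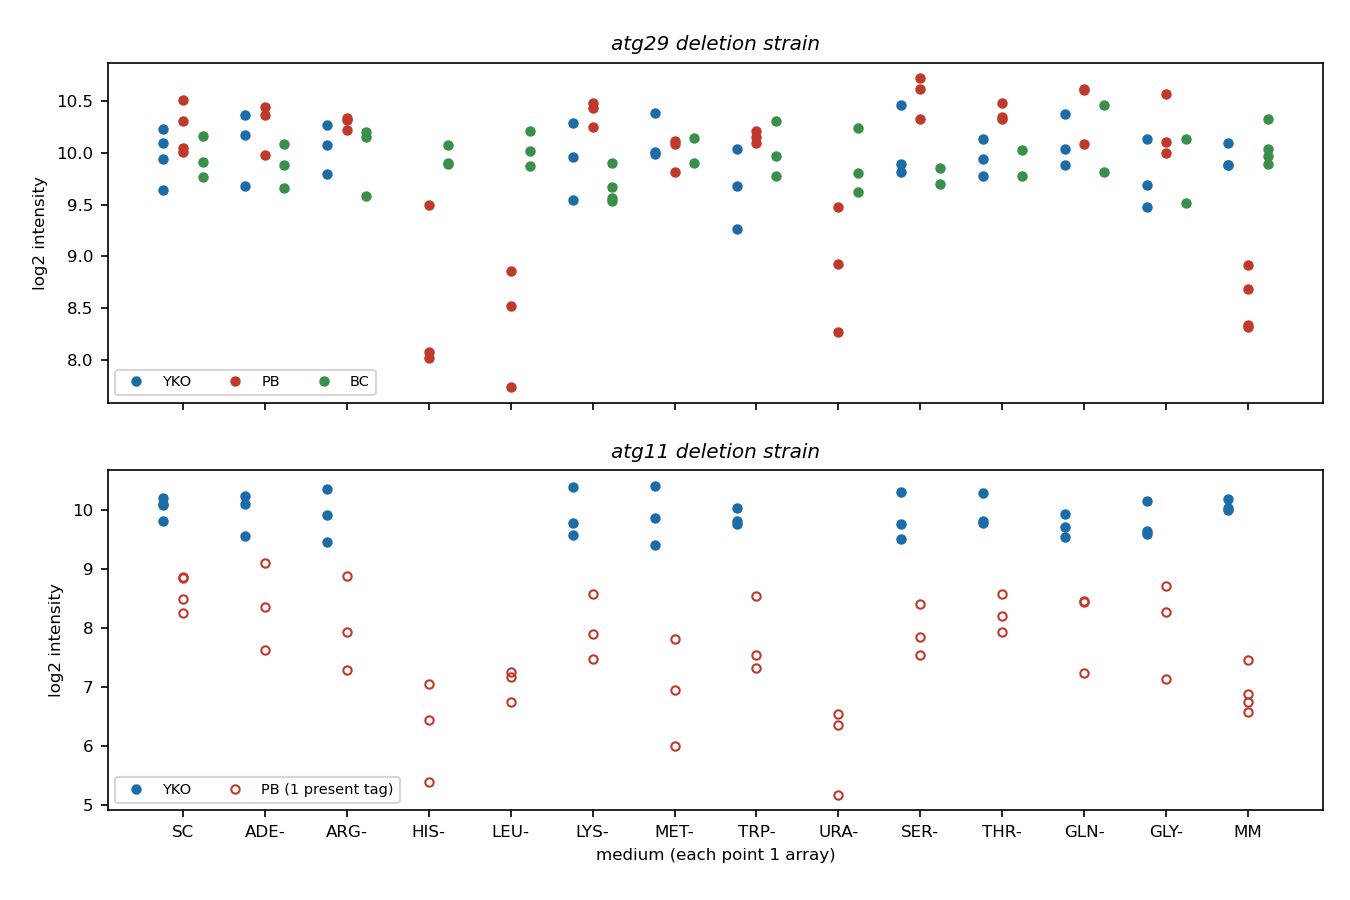
Log2 intensity (vertical axis) on each array (points) in SC and the synthetic media (horizontal axis) for ATG29 in the 3 collections and for ATG11 in YKOaux and PBprot (open points, 1 present tag). ATG29 in PBprot falls from 10.01 to 10.51 in SC to 7.74 to 9.50 in HIS-, LEU-, URA- and MM, while YKOaux and BCprot stay near their SC arrays.

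ATG11 (YPR049C), which encodes the scaffold of selective autophagy, had 1 present tag in PBprot and entered only the wider reading there. It stood at 8.26, 8.85, 8.48 and 8.85 in SC, at 5.38, 7.04 and 6.45 in HIS-, at 7.18, 6.75 and 7.25 in LEU-, at 5.18, 6.36 and 6.55 in URA- and at 6.75, 7.45, 6.58 and 6.89 in MM. None of the 13 arrays overlapped SC, and all 13 lay below the presence threshold of 7.98, so background signal limits how low the tag can read. The scores were 2.22 ± 0.84 (SD, n = 3; limma q = 0.001), 1.49 ± 0.27 (n = 3; limma q = 0.0351), 2.31 ± 0.74 (n = 3; limma q = 0.000243) and 1.85 ± 0.38 (n = 4; limma q = 0.00485) in HIS-, LEU-, URA- and MM. In this reading 2.16%, 2.7%, 2.24% and 4.59% of all strains were called lower in those media, and 54 of 4114 strains (1.31%) in all 4, with ATG11 and ATG29 as the members among them.

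ATG11 also read lower in MET- (6.01, 7.81 and 6.94, score 1.72 ± 0.90, n = 3), which was not called (limma q = 0.18), and gave 1.12 in TRP-, also not called (limma q = 1). Its other tag, which was not present in SC, gave 1.30, 1.37, 0.91 and 1.27 in HIS-, LEU-, URA- and MM. The wider reading added 18 tests of ATG11, in the PBprot synthetic media and the YKOaux YPD media. Their median score was 0.60 and 5 of their upper limits lay under 1, so in most of them a defect of 1 was not excluded. In YKOaux, with every tag present, ATG11 stood at 9.81, 10.20, 10.08 and 10.09 in SC and at 10.18, 10.04 and 9.99 in MM, and its 10 scores ran from −0.01 to 0.45 with none called. PBprot minus YKOaux in MM was 1.72 (interval 0.68 to 2.76, limma q = 0.0341, wider reading). The YKOaux MM held added nutrients, so collection and medium cannot be told apart here either. The strain of MAK3, a gene next to ATG11, was not called lower in the 4 media in PBprot.

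ATG7 (YHR171W), the E1-like enzyme of both conjugation systems, came nearest to a call of the remaining members in the nutrient media. In PBprot it stood at 9.997, 9.76, 9.96 and 9.95 in SC and at 9.26, 8.94, 9.56 and 8.92 in MM, with no overlap. The score was 0.85 ± 0.30 (SD, n = 4; limma q = 0.0117) in MM and 0.71 ± 0.45 (n = 3; limma q = 0.00884) in HIS-, both under the threshold of 1. It passed the threshold when single arrays were left out, with 1.01 in MM without replicate 1 or replicate 3 and with 1.09 and 1.06 in HIS- without replicate 1 and replicate 3. In YKOaux MM the score was 0.37 and was not called. The PBprot downtag of ATG7, also present but not the tag used, gave 0.49 in MM (0.10 to 1.82 on single arrays) and 0.45 in HIS-.

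ATG15, which encodes the vacuolar lipase that opens autophagic bodies, read higher in PBprot MM. It stood at 10.44, 10.32, 10.23 and 10.40 in SC and at 11.10, 10.83, 10.79 and 10.66 in MM, all above SC, with a score of −0.45 (limma q = 0.0301), under the size needed for a call. The YKOaux and BCprot scores were −0.37 and −0.31, with intervals that included 0.

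In YPG, which requires respiration, 0 of 20 members were called in YKOaux, 1 of 20 in PBprot and 0 of 20 in BCprot, beside 1.86%, 4.13% and 0.746% of all strains. At an unadjusted p under 0.05 limma gave 0 of 20 member tests in YKOaux, 11 of 20 in PBprot and 5 of 20 in BCprot. Beside them stood 538 of 2080 tests in PBprot and 543 of 2278 in BCprot over all strains, and a larger share than the members' in YKOaux. These member tests went both ways. In PBprot ATG2, ATG14, ATG15, ATG20 and ATG27 read lower, and ATG12, ATG13, ATG19, ATG26, ATG29 and SNX4 read higher. In BCprot ATG2, ATG8 and SNX4 read lower, and ATG7 and ATG27 higher. The member medians were 0.045, 0.083 and 0.143, against 0.0186, −0.04 and 0.114 over all strains. ATG32 (YIL146C), the mitophagy receptor of the outer membrane, gave 0.03, 0.13 and 0.10 in YKOaux, PBprot and BCprot, and its YPG arrays (9.63 and 9.64, then 9.29 to 9.69, then 9.24 to 9.73) overlapped YPD (9.10 to 10.67, 9.36 to 10.30 and 8.70 to 10.11) each time. ATG9 gave −0.14, −0.13 and 0.18. The strain without the mitophagy receptor thus stayed near its YPD level on glycerol in each collection.

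ATG20 (YDL113C), a sorting nexin that partners Snx4 in endosomal recycling and the Cvt pathway, was the strain called in YPG. In PBprot it read between 9.17 and 9.71 in 9 YPD arrays (median 9.41) and at 7.78, 7.52, 7.30 and 7.29 in YPG. Under the ionophores it stood at 7.38, 6.90 and 7.87 in CCCP and at 7.97, 8.73 and 8.39 in FCCP, against 9.16 to 10.003 (median 9.66) in 8 DMSO arrays. No treated array of these 3 media reached its controls.

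The FD scores of ATG20 in PBprot were 2.01 ± 0.23 (SD, n = 4; interval 1.62 to 2.28; limma q = 4.06e-12) in YPG, 2.28 ± 0.48 (n = 3; limma q = 1.96e-12) in CCCP and 1.28 ± 0.38 (n = 3; limma q = 3.02e-06) in FCCP. It ranked 38, 30 and 33 among 2080 strains. Of all strains 3.22% were called lower in CCCP and 2.02% in FCCP, and 38 of 2080 (1.83%) in all 3 media, ATG20 among them. CCCP and FCCP share the DMSO control arrays. In YPG 3 of 4 arrays and in CCCP 2 of 3 lay below the presence threshold of 7.73, so background signal limits how low the tag could read there. The downtag gave 2.22 in YPG, 1.79 in CCCP and 1.23 in FCCP.

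Outside these media ATG20 stayed near its controls in PBprot. It gave −0.36 in cisplatin and 0.11 in the quinolone, and from −0.12 to 0.35 in the 12 dropouts and MM. In MM it stood at 9.66, 9.77, 9.22 and 9.55, against 9.82, 9.84, 9.91 and 9.76 in SC (score 0.22). Its partner SNX4 was not lower in YPG in PBprot, with a score of −0.40 (interval −0.61 to −0.02, limma q = 0.169). The strains of the neighbouring genes TRM3 and YDL114W were not called in YPG, CCCP or FCCP.

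In YKOaux ATG20 had 1 present tag in YPD media. It stood at 9.17 and 9.56 in YPG, at 9.92, 10.20 and 9.70 in CCCP and at 10.09, 10.34 and 9.53 in FCCP, with scores of −0.05, 0.01 and −0.16, none called. PBprot minus YKOaux in this wider reading was 2.08 in YPG (limma q = 3.65e-05), 2.29 in CCCP (limma q = 4.14e-07) and 1.36 in FCCP (limma q = 0.0144). With the YKOaux YPD array of replicate 8 left out, a choice made after seeing the data, every tag of ATG20 was present and the differences were 1.93 (interval 1.32 to 2.53, limma q = 1.14e-05), 2.29 (1.71 to 2.86, limma q = 9.34e-09) and 1.36 (0.78 to 1.93, limma q = 0.00217). In the quinolone and in cisplatin the difference was −0.33 and 0.004 and was not called. BCprot had no present tag for ATG20, so this strain was compared between PBprot and YKOaux alone.

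**Figure D4:**
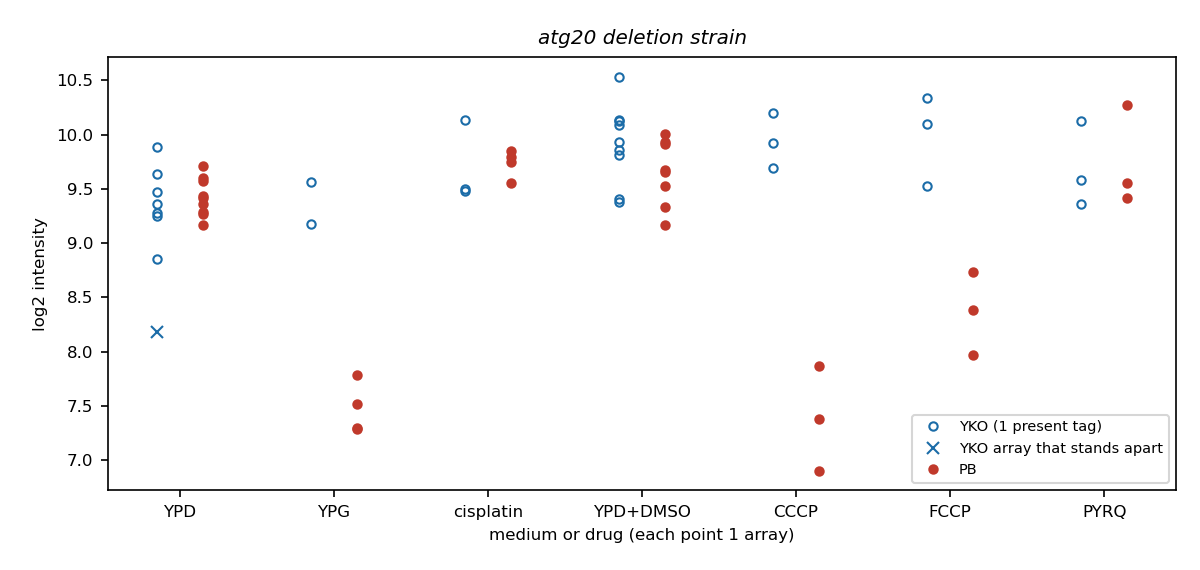
Log2 intensity of ATG20 (vertical axis) on each array (points) in YPD, YPG and the drug media (horizontal axis) in PBprot (filled) and YKOaux (open, 1 present tag), with a cross for the YKOaux array that stands apart. PBprot falls to 7.29 to 7.78 in YPG, 6.90 to 7.87 in CCCP and 7.97 to 8.73 in FCCP, and the YKOaux scores in these media lie between −0.16 and 0.01.

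Under the 4 drugs 0 of 80 member tests were called in YKOaux, 2 of 80 in PBprot (both ATG20) and 0 of 80 in BCprot, beside 1.11%, 1.59% and 0.571% of all strains' tests. At an unadjusted p under 0.05 limma gave 6 member tests in YKOaux, 10 in PBprot and 4 in BCprot. Over all strains it gave 879 of 9248, 1048 of 8320 and 774 of 9112 tests in the same order. ATG15 in YKOaux came nearest to a call, at 8.48, 8.51 and 9.11 in CCCP against 8.99 to 9.72 in DMSO, where the groups overlapped (score 0.91 ± 0.36, SD, n = 3; limma q = 0.0137). In FCCP its score was 0.73 ± 0.42 (n = 3; limma q = 0.044). With the mean of both tags in place of the steadier one, the CCCP score was 1.06 (limma q = 0.013) and was called.

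The remaining members were as near their controls. SNX4 (YJL036W), which recycles cargo from endosomes and acts in the Cvt pathway, gave scores from −0.51 to 0.54 over 51 tests, with no upper limit above 0.94. The Cvt receptor ATG19 (YOL082W) ran from −0.46 to 0.58 and its relative ATG34 (YOL083W), the receptor for alpha-mannosidase, from −0.39 to 0.68, where 38 of 51 upper limits lay under 1. ATG12 (YBR217W), the ubiquitin-like partner of Atg5, ran from −0.58 to 0.43, and ATG10 (YLL042C), its E2-like enzyme, from −0.26 to 0.56. ATG18 (YFR021W), the partner of Atg2, ran from −0.41 to 0.19 and ATG26 (YLR189C), a sterol glucosyltransferase, from −0.44 to 0.27. The E2-like enzyme of Atg8, ATG3 (YNR007C), and the Atg9 transport factor ATG23 (YLR431C) passed with every tag only in YKOaux synthetic media, with scores from −0.02 to 0.46 and from −0.32 to 0.34. ATG33 (YLR356W), a mitochondrial protein of mitophagy, gave 15 scores in YKOaux, from −0.12 to 0.28. ATG3, ATG10, ATG18, ATG23, ATG26 and ATG33 are named so that every member is accounted for. On single arrays, the median score over the members lay between −0.45 and 0.23, so no array shifted the group as a whole by a call's size.

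A few members differed from their controls by less than the size needed for a call. ATG8 in BCprot YPG read 10.39, 10.38, 10.39 and 10.38, below all 9 YPD arrays (10.50 to 11.29), with a score of 0.56 ± 0.0068 (SD, n = 4; limma q = 0.0176), while YKOaux and PBprot gave 0.23 and 0.12. The BCprot uptag of ATG8, also present but not the tag used, gave 0.32 in YPG, from 0.01 to 0.34 on single arrays. ATG2, a lipid transfer protein that was named after its values were seen, gave 0.47 ± 0.43 in PBprot YPG (n = 4; limma q = 0.000792). ATG21, a lipid-binding protein of the Cvt pathway, gave the highest BCprot YPG score, 0.68 ± 0.49 (n = 4), which was not called (limma q = 0.213).

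ATG27 (YJL178C), a membrane protein of Atg9 transport, read higher than SC in BCprot in 11 of 12 dropouts without a call. The median over the dropouts was −0.70, and the lowest scores were −1.12 ± 0.34 in LYS- (SD, n = 4; interval −1.34 to −0.29) and −1.07 ± 0.01 in GLN- (n = 2; limma q = 0.974). The lowest q was 0.917, and 5 of the 12 had an unadjusted p under 0.05 by limma. With the replicate number as a block the GLN- score was −1.06 and was called higher (limma q = 0.0235). The BCprot dropouts shared too few replicate numbers to tell whether the numbers pair arrays. Of the 4 LYS- arrays, 2 carry the same replicate label, and with their mean as 1 replicate the score was −1.17 ± 0.37 (SD, n = 3). All 12 were compared with the same 3 SC arrays, which stood at 9.08, 9.71 and 9.04.

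The tests left some room above the threshold. An upper limit of 1 or more without a call was found for ATG8 in YKOaux MM, for ATG34 and ATG7 in 12 PBprot dropout tests, for ATG16 and ATG7 in PBprot MM, for ATG21, ATG22, ATG32 and ATG34 in 9 BCprot dropout tests, and for ATG15 in 2 YKOaux drug tests. ATG16 is named after its values were seen. In the wider reading ATG5, the target of Atg12, gave 51 scores from −0.54 to 0.42. ATG4 could be read only in BCprot SC media, where its 13 scores ran from 0.02 to 1.15 with upper limits up to 3.01, so a defect of 1 was not excluded for ATG4 in any of them.

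Of 24 other genes of the pathway (the remaining kinase subunits, receptors, cargo enzymes, fusion factors and vacuolar proteases), 16 were tested in at least 1 comparison. None was called in a dropout, in MM or in YPG. In the dropouts and MM 14 of these genes were tested in YKOaux, 10 in PBprot and 10 in BCprot. In YPG 10, 10 and 9 were tested. Over all strains 0.144%, 0.596% and 0.0377% of dropout tests were called lower. In MM these shares were 1.14%, 3.78% and 0.617%, and in YPG 1.86%, 4.13% and 0.746%. There were 2 calls in drugs, both named, after their values were seen, because they are few. They were 1 of 40 drug tests in PBprot and 1 of 36 in BCprot, with 0 of 40 in YKOaux. Among all strains' drug tests 1.59%, 0.571% and 1.11% were called lower in the same order. TRS85, a subunit of the TRAPPIII complex, gave 1.02 ± 0.33 in PBprot CCCP (SD, n = 3; limma q = 0.00429). ATG40, a receptor for autophagy of the endoplasmic reticulum, gave 2.54 ± 1.24 in BCprot cisplatin (n = 4; limma q = 3.83e-07). The uptag and downtag of a member differed by a median of 0.155 in FD score over the 1090 tests, and by 0.457 at the 90th percentile.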

How the data were processed

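Each array reports the barcodes of a harvested culture: both tags of a strain were PCR-amplified from its DNA and read on a TAG4 array. The deposited table holds log2 intensities for each tag, for which the authors masked hybridisation artefacts and normalized uptags and downtags separately to their median within each collection and medium set, which the labels name as a normalization batch. The methods also name a batch correction (ComBat), and whether the deposited values include it is not given in the sources used here. Values ran from 3.61 to 14.67. Arrays give no read depth, so precision rests on the number of arrays.

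Presence was set by a Gaussian mixture of 2 components fitted to the controls of each set. A strain needed a posterior above 0.5 for all its tags on each control array, and its steadiest tag there (lowest coefficient of variation) gave its values. Differences were fitted with limma 3.58.1 in R 4.3.3, with 1 mean for each condition over all arrays of a set. Differences between collections came from 1 joint fit to the arrays of both, with 1 estimate of the spread for each strain. Fits within a set ran over all its present strains, and joint fits over the strains present in both collections. The fits were tested on simulated data. Alternatives were the mean of both tags, other presence rules, only the arrays compared, each array left out, and the replicate number as a block. Same-numbered arrays deviated together in 8 of 9 YKOaux and 12 of 12 PBprot dropouts (correlations of 0.338 to 0.703 and 0.365 to 0.778), which pairs the numbers there, and not in MM or YPD media. BCprot dropouts shared too few numbers to tell. The labels give 2 arrays the same replicate number in BCprot LYS- (correlation 0.900) and in YKOaux GLN- (0.982), and these were fitted as separate arrays. The methods call the replicates independent experiments, but each collection was a single pool, so p-values measure the spread between cultures of that pool.

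The members and gene lists were chosen with earlier results of these data known. Named were the members called in any comparison or difference between collections, the highest and lowest score in MM and YPG in each collection, and ATG1, ATG8, ATG9, ATG11, ATG15, ATG32 and SNX4, with other pathway genes named where called in 2 or more comparisons. All other names were added after their values were seen. All 30 ORFs and the 24 other pathway genes matched a symbol in the RefSeq table of yeast genes, which also gave neighbouring genes. Starting pools and 2 BCprot arrays whose title and growth medium disagree entered no comparison.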

Additional observations from a re-analysis of the deposited data

Results flagged for a closer look

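The FD score of ATG29 differed between collections by a test of the difference itself. It was 1.63 higher in PBprot than in YKOaux in MM, where the YKOaux medium held added nutrients, so collection and medium cannot be told apart. BCprot minus PBprot was −1.70 in HIS-, −1.94 in LEU- and −1.76 in MM. The score of ATG20 in PBprot minus YKOaux, without the YKOaux YPD array of replicate 8, was 2.29 in CCCP, 1.36 in FCCP and 1.93 in YPG.

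Among 110 groups of 4 to 10 arrays, 8 (7.27%) held an array far from the others in its group, where chance gives about 1 in 20. In BCprot LYS- the array of replicate 1 gave 0.946 for ATG22, a vacuolar membrane protein of amino acid efflux (others 0.134 to 0.269), and 0.830 for ATG34, a receptor for alpha-mannosidase (others −0.271 to −0.119); of these 4 arrays, 2 share a replicate label. In BCprot ATG22 gave 0.686 on replicate 2 of the quinolone (others 0.0098 to 0.218) and ATG21 gave −0.273 on replicate 3 of YPG (others 0.623 to 0.735). In PBprot ATG19, the Cvt receptor, gave 0.0157 on MM replicate 1 (others −0.512 to −0.455). In PBprot YPG, ATG12, the ubiquitin-like partner of Atg5, gave −0.162 on replicate 3 (others −0.440 to −0.421) and SNX4 gave −0.521 on replicate 2 (others −0.407 to −0.398). ATG32 gave −0.648 on replicate 1 of PBprot cisplatin (others −0.177 to −0.0919). None of these 8 groups was called.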

How the results depend on the processing

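Over 716 results for single members and 10568 alternatives, 10561 kept their call or lack of a call, 1 lost a call and 6 gained one. Direction was compared only where the result or its alternative was called, and 0 of these turned direction. The called scores stayed within 1.39 to 2.23 (ATG29, HIS-), 1.49 to 2.05 (LEU-), 0.98 to 1.58 (URA-), 1.50 to 1.84 (MM), 1.89 to 2.15 (ATG20, YPG), 2.00 to 2.52 (CCCP) and 1.06 to 1.48 (FCCP). The presence rule moved the counts most. With at least 1 present tag, PBprot had 6 lower calls in dropouts (3 as reported), 2 in MM (1 as reported) and 5 differences from YKOaux (1 as reported). With no presence filter these were 6, 2 and 5, BCprot had 2 higher calls in dropouts (ATG14 and ATG20 in THR-, both without a present tag), and the differences numbered 1 for BCprot minus YKOaux (0 as reported) and 7 for BCprot minus PBprot (3 as reported). Presence from the control mean gave 4 differences of PBprot from YKOaux, as did leaving out YKOaux YPD replicate 8 with presence taken anew, an alternative chosen after seeing the data. The mean of both tags gave 1 lower call in YKOaux drugs (ATG15 in CCCP). The replicate block added ATG27 in BCprot GLN- (−1.06, limma q = 0.0235) as 1 higher call and the ATG29 difference in URA-, and changed no other call. Both rest on BCprot dropouts, where pairing by number could not be told. Leaving out 1 array at a time gave 2 to 4 lower calls in PBprot dropouts, 1 to 2 in PBprot MM and 1 to 2 differences of PBprot from YKOaux (2 without YKOaux CCCP replicate 3). With only the arrays compared, the ATG29 difference in HIS- (−1.70) had a limma q of 0.0509. Signal near background limits ATG4 and, in PBprot, ATG11 and the YPG and CCCP values of ATG20, and 3 SC arrays limit every BCprot dropout.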

Other observations

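In BCprot, MM with uracil was grown on 1 array and has no replicate check. Over 19 members the FD score against SC ran from −0.93 (ATG29) to 1.59 (ATG34), with a median of −0.45, and 2 members reached 1, ATG34 and SNX4 (1.02). No value over all strains is given for this array, so the median and the count cannot be told from a trait of the whole array.

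The title and growth medium disagree for 2 BCprot arrays, which therefore belong to no group. On array 14 (titled for MET-, medium given as LYS-) the scores of 19 members against SC ran from −0.78 (ATG26) to 0.61 (ATG21), with a median of −0.21. On array 15 (titled for SC, medium given as MET-) they ran from −0.67 (ATG29) to 0.27 (ATG8), with a median of −0.21.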
